A study of Mus musculus with 13 samples.

Results

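Ptch1, Gli1 and Hhip are genes of the Hedgehog pathway that the pathway itself switches on, and the binding of 4 transcription factors around them was examined in neural progenitors grown from embryonic stem (ES) cells of the mouse. The data are peaks from chromatin immunoprecipitation and sequencing (ChIP-seq), that is, places where DNA precipitated with a factor piled up. A peak was counted when its centre lay in a window drawn around each gene in the mouse build mm9. The windows were chr13:63500000-63800000 for Ptch1, chr10:126600000-126900000 for Gli1 and chr8:82350000-82750000 for Hhip. They held 48 of the 23280 deposited peaks: 8 of 5551 for Nkx2.2, 6 of 4094 for Nkx6.1, 18 of 11747 for Olig2 and 16 of 1888 for Gli3. The Ptch1 window held 23 of them, the Gli1 window 15 and the Hhip window 10.

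Nkx2.2, Nkx6.1 and Olig2, called the ventral factors here, were profiled in ventral progenitors, kept in suspension for 2 days and then given 500 nM retinoic acid and 160 to 800 nM Smoothened agonist (SAG, a compound that turns on the pathway) for 3 days. Each had 2 ChIP libraries. The ES line YFP3.1 gave replicate 1 of Olig2 and Nkx6.1. Its derivative Rosa26-Gli1FLAG, whose name holds 1 of the genes described here, gave every replicate 2 and the first Nkx2.2 replicate. Both lines have a strain background mixed from C57BL6/J, 129 Sv and Swiss Webster. Gli3 had 1 ChIP library, from progenitors given retinoic acid without the agonist and labelled dorsal. They came from the line V6.5 (C57BL/6 X 129/sv) with a 3xFLAG-Avi tag inserted at the initiation codon of Gli3, and the anti-FLAG antibody M2 was used. The 6 other libraries were inputs, chromatin sequenced without precipitation. The factor, the agonist and the cell line differ together between Gli3 and the rest, so they cannot be told apart in any comparison with Gli3. For Olig2 and Nkx6.1 the replicate and the cell line also differ together and cannot be told apart, while both Nkx2.2 replicates share 1 line. Overlap of peaks from different libraries also does not show that both factors sat on the same DNA in the same cell.

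In the absence of a Hedgehog ligand, the receptor Ptch1 holds back the membrane protein Smoothened, and Gli3 is cut into a form that represses target genes. Ligand binding to Ptch1, or the agonist acting on Smoothened, stops the making of the repressor and lets Gli proteins activate their targets. Ptch1 and Hhip, a membrane protein that binds the ligand and keeps it from the receptor, are induced targets that limit the signal. Gli1, an activator of the same family as Gli3, is an induced target that adds to it. Nkx2.2 and Olig2 are themselves induced by Hedgehog in the ventral neural tube, and Nkx6.1 is expressed across its ventral progenitors. All 3 ventral factors act largely as repressors there.

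Which genes, exons and introns lie under the peaks was not analysed here. RefSeq promoter sequences of GRCm38.p6, another build used for sequence alone, were found for Ptch1 and Hhip, 2 of the 3 genes. The 250 bases before the start of each gene are shown, since these are the genes around which Gli3 peaks were counted, and the letters searched for are the sequence that Gli proteins are known to prefer. That motif is GACCACCCA, or TGGGTGGTC on the other strand, and capitals mark its inner core CCACCC where it was found on either strand. Both genes lie on the minus strand, and the sequences read 5′ to 3′ along the gene.
Ptch1: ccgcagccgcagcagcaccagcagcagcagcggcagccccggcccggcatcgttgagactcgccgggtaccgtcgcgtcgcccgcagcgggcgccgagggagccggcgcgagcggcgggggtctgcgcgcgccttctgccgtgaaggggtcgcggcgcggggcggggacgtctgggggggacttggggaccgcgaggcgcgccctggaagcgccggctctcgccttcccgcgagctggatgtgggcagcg
Hhip: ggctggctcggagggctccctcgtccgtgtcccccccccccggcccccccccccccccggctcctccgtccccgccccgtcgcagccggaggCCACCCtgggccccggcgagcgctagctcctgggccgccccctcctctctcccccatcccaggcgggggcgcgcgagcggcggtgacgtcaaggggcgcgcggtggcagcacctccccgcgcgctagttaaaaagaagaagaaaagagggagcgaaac
The whole motif was in neither sequence. The closest stretch of Ptch1 differed from it at 3 bases and that of Hhip at 2 bases. Among 32851 promoters searched in the same way, 0.225% held the exact motif and 5.79% held it with at most 1 mismatch. The core, a search chosen after seeing that the whole motif was absent, was at 1 place before Hhip and at 0 places before Ptch1, and 28.1% of all promoters held it. These letters describe the 250 bases alone, and how far the Gli3 peaks lie from them was not analysed here.

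Relative to its own list, Gli3 was the factor whose peaks were most crowded at these genes. Its list held 8 peaks in the Ptch1 window, 6 in the Gli1 window and 2 in the Hhip window, which is 26.67, 20 and 5 peaks per Mb against 0.7161 per Mb over the whole list. Windows of the same width were laid along the genome in steps of 100 kb to give a background. Of the 26332 windows of 300 kb, 0.0342% (9 windows) held as many Gli3 peaks as the Ptch1 window, and 0.103% (27 windows) held as many as the Gli1 window. Tiled windows overlap, so several of these are views of the same place. Of the 26311 windows of 400 kb, 5.9% held as many as the Hhip window. Chromosome 8 carried 14.2% of the Gli3 list but only 5.8%, 5.54% and 5.52% of the Nkx2.2, Nkx6.1 and Olig2 lists, and on that chromosome alone 19.6% of windows held 2 or more Gli3 peaks. The number of Gli3 peaks at Hhip was therefore one that many windows of its chromosome reach, while few windows reached the numbers at Ptch1 and Gli1.

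The ventral factors were also frequent at Ptch1, but less far from their own backgrounds. The Ptch1 window held 4 Nkx2.2 peaks, and 2.55% of windows held as many, 3 Nkx6.1 peaks (3.63%) and 8 Olig2 peaks (1.15%). The Gli1 window held 3 Nkx2.2 peaks (6.24% of windows held as many), 1 Nkx6.1 peak (30.5%) and 5 Olig2 peaks (6.16%). The Hhip window held 1 Nkx2.2 peak (44.1%), 2 Nkx6.1 peaks (14.6%) and 5 Olig2 peaks (10.5%). For the ventral factors the Gli1 and Hhip windows thus had counts that many stretches of the genome share. In Mb terms, Olig2 and Gli3 were equally dense at Ptch1, at 26.67 peaks per Mb each, although the whole Olig2 list is 4.456 and the whole Gli3 list 0.7161 per Mb.

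**Figure D1:**
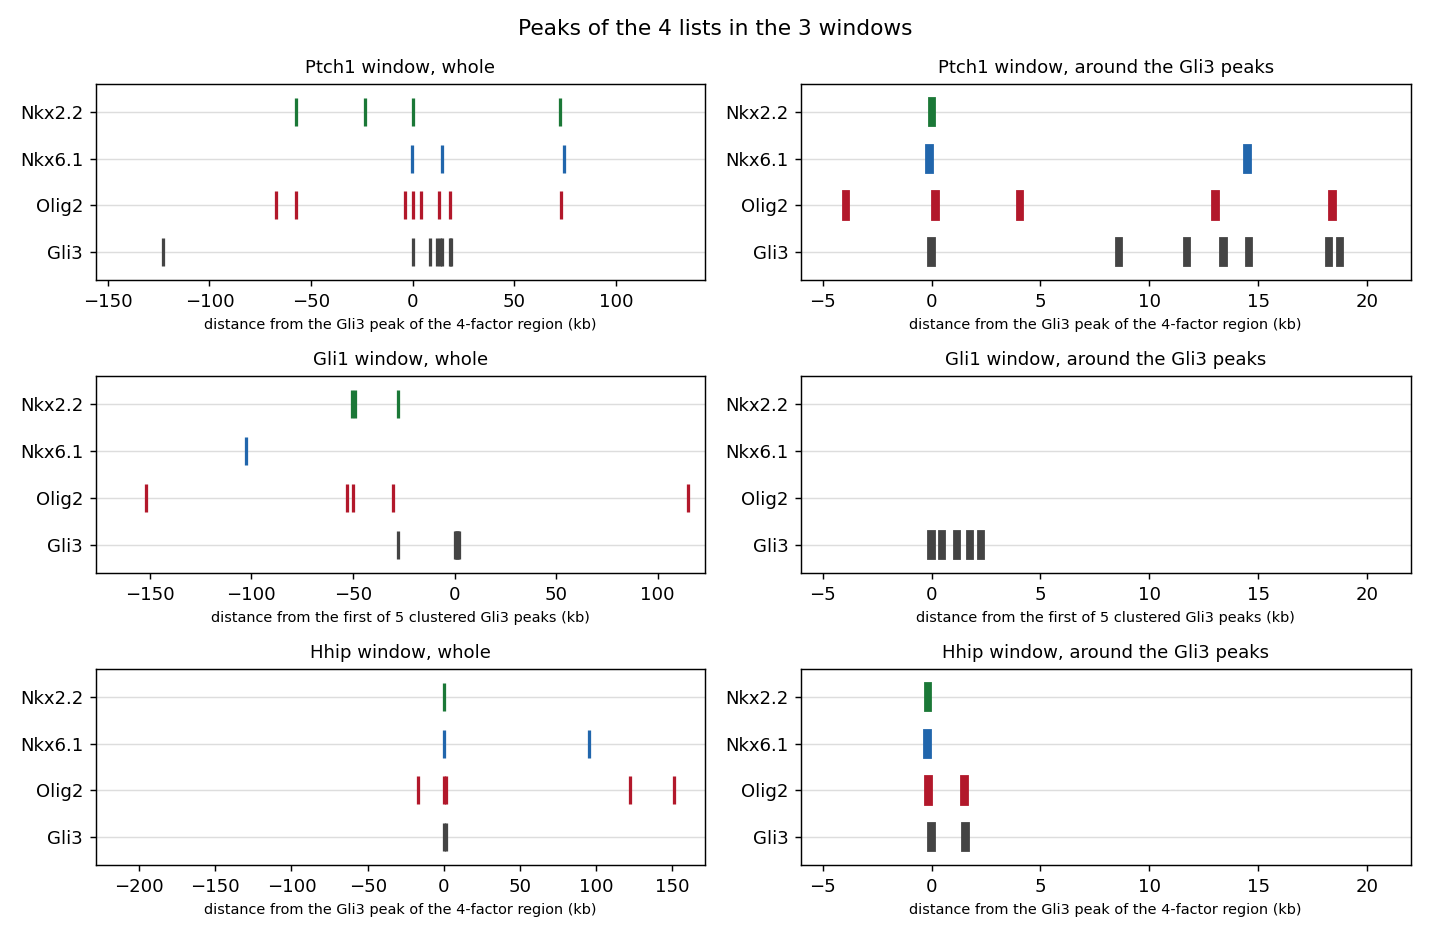
Positions of the 48 peaks in the 3 windows (rows), by factor; the horizontal axis is distance in kb from a Gli3 peak named under each panel, and each bar is 1 peak. Left panels show whole windows, and right panels the stretch around the Gli3 peaks, where bars are drawn to the peaks' width of 300 bp. There 5 Gli3 peaks stand alone at Gli1, and 7 lie among peaks of the ventral factors at Ptch1, 3 of them overlapping one. At Hhip there are 2, the left with peaks of all 3 ventral factors and the right with an Olig2 peak alone.

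The Gli3 peaks of Gli1, the activator that the pathway induces, formed a tight row. Of the 6 peaks in the window, 5 fell within 2.579 kb (chr10:126776465-126779043), with 0.484 to 0.692 kb between neighbouring centres. In the whole Gli3 list this was the only stretch of 3 kb with 5 or more peaks. It was also the only one at 4 or 5 kb, and at 2 kb there were 0. These lengths were chosen after the row had been seen. No peak of a ventral factor lay in it, and the nearest, an Nkx2.2 peak, was 27.73 to 30.01 kb from the centres of the 5. The nearest Olig2 peak was 30.2 to 32.47 kb away, and the nearest Nkx6.1 peak 102.8 to 105.1 kb away. The map of peaks by window shows this row as 5 bars with no ventral factor beside them.

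At Ptch1, the receptor gene, the Gli3 peaks were spread over a longer stretch that the ventral factors shared. Of the 8, 7 lay within 19.05 kb (chr13:63655865-63674919) and 6 of these within 10.45 kb (chr13:63664473-63674919). They were the only stretch of 20 kb with 7 Gli3 peaks and the only stretch of 11 kb with 6, again with lengths chosen after seeing them. The 19.05 kb also held 1 of the 4 Nkx2.2 peaks, 2 of the 3 Nkx6.1 peaks and 4 of the 8 Olig2 peaks of the window. The eighth Gli3 peak (chr13:63532812-63533111) lay 123.1 kb from the nearest other Gli3 peak and 55.95 kb from the nearest ventral peak, one of Olig2.

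At Hhip, which encodes the ligand-binding antagonist, both Gli3 peaks lay within 1.86 kb (chr8:82578304-82580163), with centres 1.56 kb apart, and each met a ventral peak. That stretch held the only Nkx2.2 peak of the window, 1 of its 2 Nkx6.1 peaks and 2 of its 5 Olig2 peaks. Over the 3 genes, 7 of the 16 Gli3 peaks had another Gli3 peak within 1 kb, against 10% of the list. Of these 7, 5 were at Gli1, 2 at Ptch1 and 0 at Hhip. Close packing at that scale was thus a feature of Gli1 more than of the other 2 genes.

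The Gli3 list carries no score, and the meaning of its order was not stated. In the ventral lists the line of a peak followed its coverage in the first block of columns closely (Spearman's rho over the list's peaks was -0.928 in Olig2, -0.891 in Nkx6.1 and -0.827 in Nkx2.2), so early lines there were peaks of high coverage, and whether the same holds for Gli3 was not tested. The earliest of the 16 was the second Hhip peak (chr8:82579864-82580163), which was reached after 0.53% of the list. The earliest Ptch1 peak (chr13:63667604-63667903) came at 0.689%. The other Ptch1 peaks came at 4.45%, 7.36%, 11.5%, 12.5%, 22.7%, 22.9% and 42.1%. The first Hhip peak, in the region of all 4 factors, came at 36%. The 6 Gli1 peaks came at 11%, 26%, 35.6%, 44.7%, 51.9% and 90.5%, and the row of 5 held all of these but 35.6%. In all, 4 of the 16 stood in the first 10% of the list and 9 in its first 25%.

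Peaks sharing at least 1 bp were joined into regions, which gave 36 regions in the windows, 17 at Ptch1, 13 at Gli1 and 6 at Hhip. Of these, 28 held 1 factor, 6 held 2, 0 held 3 and 2 held all 4. In the whole series 16.2% of 19087 regions held 2 or more factors, against 8 of the 36 here, and 0.367% held all 4, which is 70 regions. Ptch1 and Hhip thus each carried 1 of the 70, and Gli1 carried 0.

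The 4-factor region of Ptch1 was chr13:63655761-63656337, at the edge of its Gli3 stretch. From left to right its peaks were those of Nkx6.1 (start 63655761), Gli3 (63655865), Nkx2.2 (63655890) and Olig2 (63656038), and their centres spanned 0.277 kb. The Gli3 centre was 0.025 kb from that of Nkx2.2, 0.104 kb from that of Nkx6.1 and 0.173 kb from that of Olig2. The 4-factor region of Hhip was chr8:82578128-82578603. Here the 3 ventral peaks started at 82578128 (Nkx6.1), 82578149 (Nkx2.2) and 82578164 (Olig2), with centres within 0.036 kb, and the Gli3 peak started at 82578304. Its centre was 0.14 to 0.176 kb to the right of all 3. So at Hhip the ventral factors were nearly superposed and Gli3 was set off to 1 side, whereas at Ptch1 the Gli3 centre lay among the ventral centres.

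Of the 6 regions of 2 factors, 4 held Gli3. At Ptch1 these were chr13:63670371-63670752 with Nkx6.1 (centres 0.082 kb apart) and chr13:63674126-63674572 with Olig2 (0.147 kb). At Gli1 it was chr10:126748698-126749033 with Nkx2.2 (0.036 kb). At Hhip it was chr8:82579811-82580163 with Olig2 (0.053 kb). The other 2 paired Nkx2.2 with Olig2, at chr13:63598228-63598583 (0.056 kb) by Ptch1 and chr10:126726244-126726689 (0.146 kb) by Gli1. Gli3 stood alone in 10 regions, 5 at Ptch1 (starts 63532812, 63664473, 63667604, 63669269 and 63674620) and the 5 of the row at Gli1.

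Counted from the Gli3 side, 6 of 16 Gli3 peaks (37.5%) overlapped a ventral peak, against 36.3% of the whole list, so the overall share was that of the background. It was uneven over the genes, with 2 of 2 at Hhip, 3 of 8 at Ptch1 and 1 of 6 at Gli1. Counted from the ventral side, 3 of 8 Nkx2.2 peaks met a Gli3 peak, against 7.91% of the list. The same held for 3 of 6 Nkx6.1 peaks, against 3.47%, and 4 of 18 Olig2 peaks, against 3.26%. With centres within 100 bp required in place of overlap, 2 Nkx2.2 peaks, 1 Nkx6.1 peak and 1 Olig2 peak were left. Shares of the whole lists at that distance are not given here. The windows at Ptch1 and Gli1 are dense in Gli3 peaks, and the part of that density in these shares was not tested. Overlap with another ventral factor was found for 4 of 8 Nkx2.2 peaks (30.3% of the list), 2 of 6 Nkx6.1 peaks (46.7%) and 4 of 18 Olig2 peaks (20.1%). As shares of the members these are 50%, 33.3% and 22.2%, above the list for Nkx2.2, below it for Nkx6.1 and near it for Olig2, each on few peaks.

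Coverage was deposited for the peaks of the 3 ventral lists, in steps of 25 bp up to 2 kb on each side of the peak centre. It is given in 3 blocks of columns that name no library, so the blocks are kept apart and are not used as replicates. Values are means over the steps within 250 bp of the centre in the authors' units, whose scaling was not given, and are placed by the percentage of the factor's own list that had less coverage in the same block. Most member peaks stood above their surroundings in blocks 1 and 2. More than 2 times the flank, the outermost 250 bp on the right side, was reached in block 1 by 8 of 8 Nkx2.2 peaks (98.3% of the list), 6 of 6 Nkx6.1 peaks (99.2%) and 16 of 18 Olig2 peaks (98.7%). In block 2 the numbers were 7 of 8 (93.1%), 6 of 6 (94.8%) and 15 of 18 (96.9%). In block 3 they were 1 of 8 (55.9%), 4 of 6 (39.7%) and 4 of 18 (41.1%). Among the Olig2 peaks that missed the mark, that of Hhip starting at 82578164 had a flank of 35.41 in block 2, where the second Olig2 peak lies. At Ptch1 the peaks starting at 63651943 and 63668901 had flanks of 5.605 and 8.046 in block 1. Their centres were low there as well, at 6.488 and 6.76, above 10.5% and 12.8% of the list. The Nkx2.2 peak that missed the mark in block 2, at Gli1 (start 126726244), was also low, with 2.368 over a flank of 2.792. Why these peaks missed it was not tested.

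As a group the 32 ventral peaks were of ordinary coverage in block 1 and stood somewhat higher in their lists in blocks 2 and 3. Their median place was above 48.7% of the list in block 1, 57.5% in block 2 and 63% in block 3. Above their list's median, where by construction 50% of peaks lie, were 14 of 32 in block 1, 18 in block 2 and 22 in block 3. In block 1, 9 of 18 Olig2 peaks were above their list's median, as were 3 of the 8 peaks of Nkx2.2 and 2 of the 6 of Nkx6.1. In the top 10% of their lists were 3 of 32 in block 1, 4 in block 2 and 6 in block 3, where the background was 9.98%. All 3 of the peaks in the top 10% of block 1 and all 4 in block 2 were at Hhip. By gene, the median places in block 2 were 91.9% for the 8 peaks of Hhip, 57.1% for the 15 of Ptch1 and 34.2% for the 9 of Gli1, and in block 1 they were 65%, 38.6% and 48.3%. In block 3 the order was another, with Hhip lowest at 50.8%, Ptch1 at 65.2% and Gli1 at 70.3%. The Nkx6.1 peaks of Hhip did not follow the gene's median in block 1, where they were above 47% and 31.2% of their list.

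**Figure D2:**
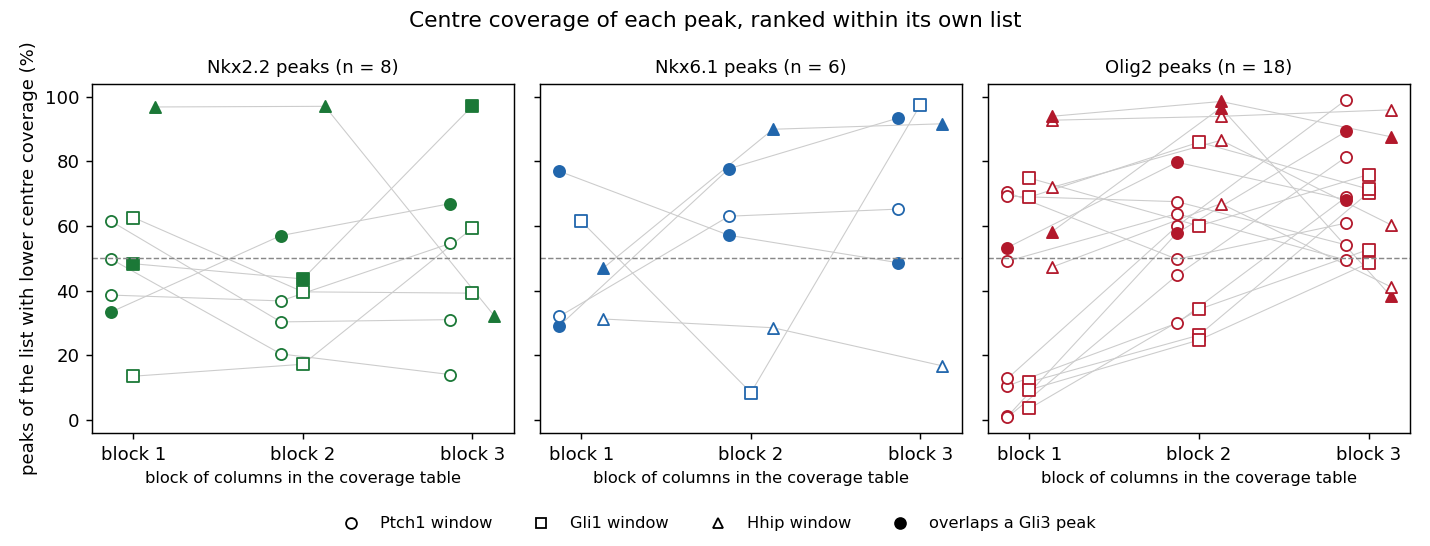
Place of each ventral peak in its own list, as the percentage of list peaks with less coverage within 250 bp of the centre (vertical axis), in each of the 3 blocks of columns (horizontal axis); circles are Ptch1, squares Gli1 and triangles Hhip, filled where a Gli3 peak overlaps, lines join the 3 values of 1 peak, and the dashed line is the list's median. In block 2 the Hhip triangles sit between 28.5% and 98.5% with 4 above 90%, and the 10 filled symbols between 43.6% and 98.5%.

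The highest Nkx2.2 and Olig2 coverage at the 3 genes was in the 4-factor region of Hhip, in block 1 and in block 2. Nkx2.2 coverage there was 63.26 in block 1, 21.5 in block 2 and 0.8734 in block 3, above 96.8%, 97% and 32.1% of its list. The highest single step was 154.5 in block 1 and 40.47 in block 2. Olig2 coverage was 47.21, 68.35 and 1.307 in blocks 1 to 3, above 93.9%, 98.5% and 87.6% of its list, with a highest step of 100.5 in block 2. Nkx6.1 coverage was 10.04, 14.45 and 1.382, above 47%, 89.9% and 91.6%. Nkx2.2 and Olig2 were therefore high in both of the first blocks, while Nkx6.1 was near the middle of its list in block 1 and high in block 2.

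The second Gli3 site of Hhip, 1.56 kb to the right and the earliest of the 16 Gli3 peaks in its list, differed in which ventral factor met it. The Olig2 peak there (start 82579811) had coverage of 12.99 in block 1, 46.59 in block 2 and 0.5789 in block 3, above 58.1%, 96.6% and 38.4% of the list. The log2 ratio of block 2 to block 1, with 1 added to each, was 1.77, and only 1 of the 11747 Olig2 peaks had a higher ratio. Nkx6.1 had no peak there, but within 100 bp of the Gli3 centre its coverage was 4.638 in block 1, where 0% of Nkx6.1 peaks had a lower centre, and 11.06 in block 2, above 66.9% of them. Nkx2.2 had no peak there either, and its coverage was 2.904 and 2.709, at the bottom of its list in block 1 and above 14.8% of it in block 2. In block 1 the Nkx2.2 profile did rise, to 24.98, at position 82579798, left of this Gli3 peak and with no Nkx2.2 peak in the list. At the second site, then, Olig2 was strong mainly in block 2, Nkx6.1 was visible mostly in block 2, and Nkx2.2 was low at the Gli3 centre.

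**Figure D3:**
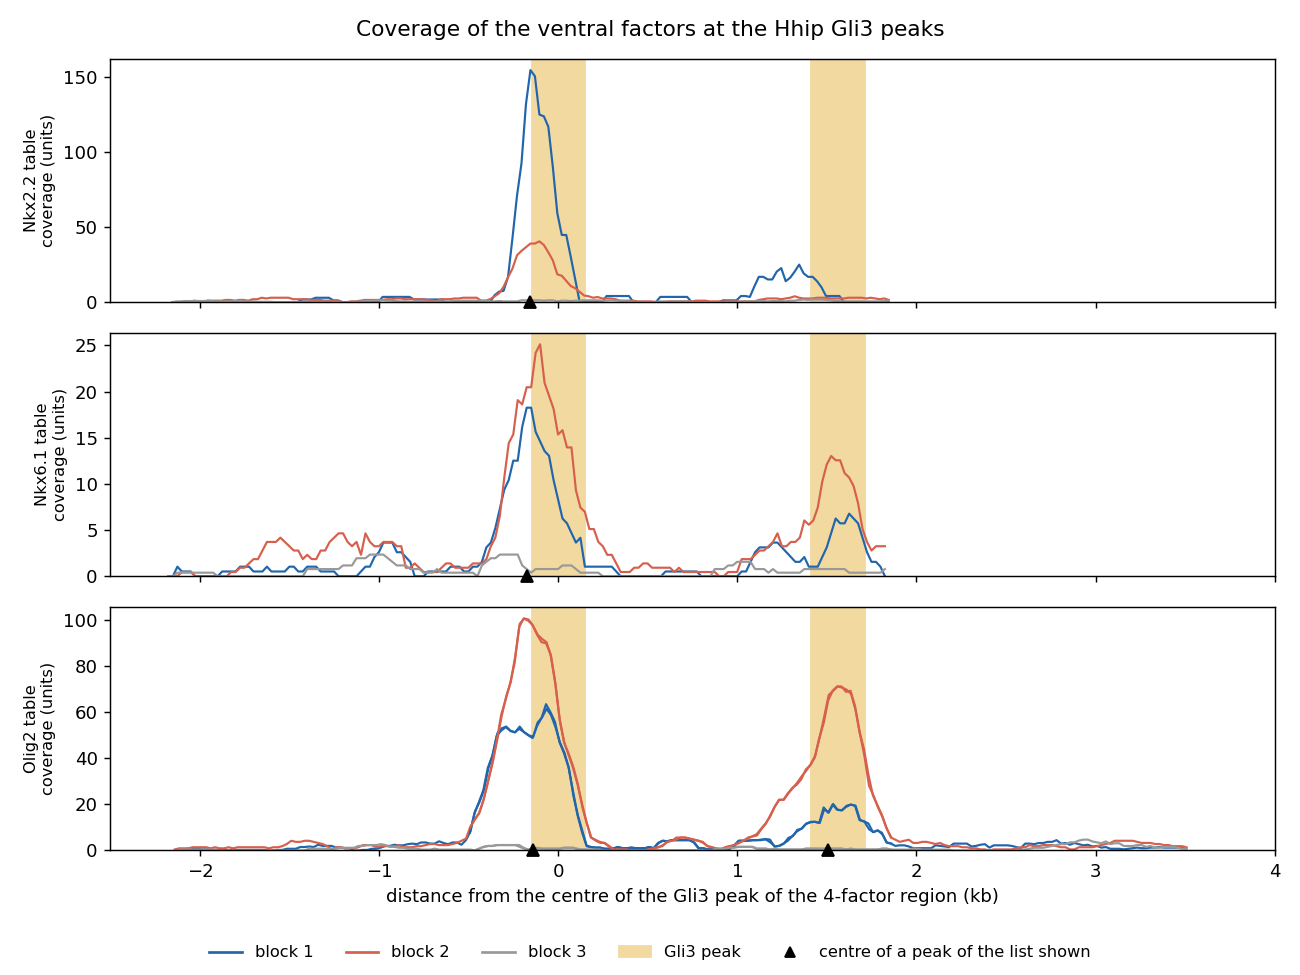
Coverage of Nkx2.2, Nkx6.1 and Olig2 (panels, authors' units, vertical axes of different scale) along Hhip by distance in kb from the centre of the Gli3 peak of the 4-factor region; lines are blocks 1 to 3, shaded bars the 2 Gli3 peaks and triangles the peaks of the factor shown. All 3 factors rise at the left edge of the first Gli3 peak, Nkx2.2 to 154.5 in block 1, and at the second Olig2 reaches 71.08 in block 2 against 19.89 in block 1.

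Outside these sites the Hhip window held 4 more ventral peaks. The Olig2 peak starting at 82561640, which lay 16.66 kb from the nearest Gli3 peak, had coverage of 43.06, 34.9 and 1.774 in blocks 1 to 3, above 92.7%, 93.9% and 95.9% of the list. It was a strong Olig2 peak with no partner. The Olig2 peaks starting at 82700642 and 82729204 were above 71.9% and 47.2% of the list in block 1 and 86.5% and 66.9% in block 2. The second Nkx6.1 peak (start 82673639) was below its list's median in all 3 blocks, at 31.2%, 28.5% and 16.7%.

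Ventral coverage at Ptch1 was moderate, with 15 peaks whose place in block 1 ran from 0.749% to 76.9% of their lists. In the 4-factor region Nkx2.2 had 15.32, 5.108 and 1.63 in blocks 1 to 3, above 33.4%, 57% and 66.9% of its list. Nkx6.1 had 15.73, 6.005 and 0.6536, above 76.9%, 57.1% and 48.6%, and was the highest Nkx6.1 peak of the window in block 1. Olig2 had 11.92, 17.7 and 0.9337, above 53.3%, 79.7% and 68.1%. In blocks 1 and 2 the ventral factors thus had places from 33.4% to 79.7% in this region. In the 4-factor region of Hhip, Nkx2.2 and Olig2 were above 93.9% or more of their lists in these blocks. Nkx6.1 was above 47% of its list there in block 1, lower than the 76.9% at Ptch1, and above 89.9% in block 2.

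Further along the Ptch1 stretch the ventral peaks at or near Gli3 were low in block 1 and higher in block 2. The Nkx6.1 peak starting at 63670371, which overlapped Gli3, had 8.099, 9.484 and 1.475, above 29.1%, 77.7% and 93.4% of its list. The Olig2 peak starting at 63674273, which also overlapped Gli3, had 4.759, 9.955 and 1.363, above 1.05%, 57.8% and 89.3%. The Olig2 peak starting at 63668901, with its centre 0.368 kb from a Gli3 centre, had 6.76, 10.42 and 2.353, above 12.8%, 59.9% and 99.1%. All 3 were also high in block 3, where 9 of the 32 ventral peaks passed 2 times the flank. Which library block 3 holds is not stated in the columns, and its part in the values of the other blocks was not tested.

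Olig2 coverage also rose in block 2 at places in this stretch where its list has no peak. At the Gli3 peak starting at 63670453, where Nkx6.1 has a peak, Olig2 coverage within 100 bp of the Gli3 centre was 5.193 in block 1, above 0.017% of the list's own centres, and 15.02 in block 2, above 56.9%. The highest step near the Olig2 peak starting at 63674273 was 27.12 in block 2, at position 63673272 and 1.15 kb to its left, against 20.11 within 0.3 kb of its centre. Block 1 was 4.724 at that place. At the Gli3 peak starting at 63669269, by contrast, Olig2 coverage was 2.32 and 3.014, above 0% and 5.07% of the list.

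**Figure D4:**
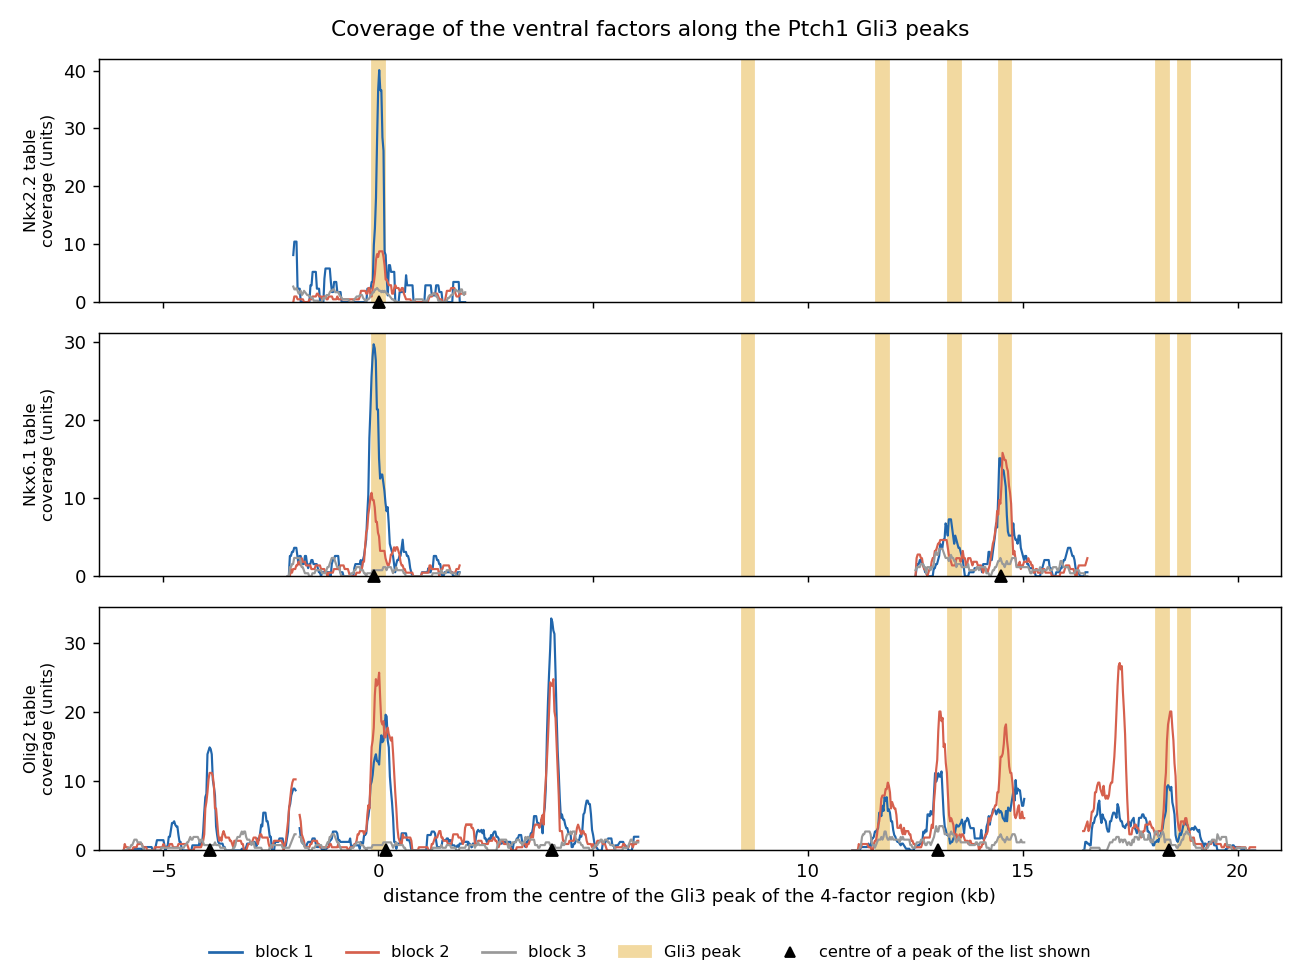
Coverage of Nkx2.2, Nkx6.1 and Olig2 (panels, authors' units, vertical axes of different scale) along 7 Gli3 peaks of Ptch1 by distance in kb from the Gli3 peak of the 4-factor region; lines are blocks 1 to 3, shaded bars Gli3 peaks, triangles peaks of the factor shown, and gaps are places more than 2 kb from any such peak, which the tables do not reach. Olig2 block 2 reaches 27.12 between Gli3 peaks where the list has no Olig2 peak, and peaks of all 3 factors coincide only at 0 kb.

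Away from Gli3 the Ptch1 window held the highest Nkx2.2 and Olig2 peaks of the window by block 1. The Nkx2.2 peak starting at 63598228, joined to an Olig2 peak, had 21.22, 3.181 and 0.8502, above 61.4%, 30.3% and 31% of the list. The Olig2 peak starting at 63588767 had 16.76, 8.351 and 0.8217, above 70.4%, 49.7% and 60.9%. By block 2 the highest Olig2 peaks of the window were those starting at 63656038, in the 4-factor region, and 63659918, above 79.7% and 67.5% of the list. At the right end, 3 single peaks of Nkx2.2, Olig2 and Nkx6.1 lay within 1.7 kb between centres (starts 63728493, 63728812 and 63730194) without touching. They had low to middling places in block 1, at 49.7%, 0.749% and 32%.

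By place in the lists, Gli1 had the lowest ventral coverage of the 3 genes in block 2. Its only peak of a ventral factor at Gli3, the Nkx2.2 peak starting at 126748734, had 18.06, 4.017 and 3.238 in blocks 1 to 3, above 48.3%, 43.6% and 97.1% of the list. It was thus of middle rank where Nkx2.2 peaks are usually raised and of high rank in block 3. The highest Nkx2.2 peak of the window by block 1, starting at 126727322, had 21.55, 3.761 and 0.9899, above 62.6%, 39.6% and 39.2%. Its own centre was low, however, at 6.906 within 100 bp, and the highest step of 64.48 lay 0.225 kb to the right, so the listed centre missed the summit. The highest Olig2 peak by block 1, starting at 126891489, had 18.87, 10.42 and 1.046, above 74.8%, 60% and 75.9%. By block 2 it was the Olig2 peak starting at 126726390, joined to an Nkx2.2 peak, with 16.23, 22.2 and 0.9711, above 68.9%, 85.9% and 71.4%. The single Nkx6.1 peak (start 126673638) had 12.02, 1.773 and 1.811, above 61.4%, 8.43% and 97.5%, and so was high in block 3 and low in block 2. The 3 remaining Olig2 peaks (starts 126624562, 126723738 and 126746270) were above 11.7%, 9.3% and 3.51% of the list in block 1.

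Ventral peaks at Gli3 peaks were set beside those away from them. In block 1 the 10 peaks at Gli3 had a median place of 50.8% of their lists and the 22 others 48.2%, with 5 of 10 and 9 of 22 above the list's median. In block 2 the medians were 78.7% and 42.2%, with 9 of 10 and 9 of 22 above the list's median, and in block 3 they were 77.8% and 59.8%. The groups overlapped widely in all blocks: in block 2 the peaks at Gli3 ranged from 43.6% to 98.5% and the others from 8.43% to 93.9%. The 10 peaks lie in 6 regions and share their sequence and neighbourhood, so they are not independent, and the difference was not tested. The groups also differed in their make-up by gene. Of the 9 ventral peaks of Gli1, 1 was at Gli3, whereas all 3 ventral factors met Gli3 at Hhip. In block 2 the median place was 34.2% for Gli1 and 91.9% for Hhip. Overlap with Gli3 was therefore not separated from the gene in this comparison.

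The ratio of block 2 to block 1 was high for most Olig2 peaks of the 3 genes. It was above the median of the list, where by construction 50% of peaks lie, for 16 of 18, with a median log2 ratio of 0.141 against -0.504 over the list. For Nkx2.2 it was above the median for 2 of 8 peaks (50% of the list), with medians of -1.92 and -1.83, and for Nkx6.1 for 3 of 6 peaks (50%), with medians of -0.698 and -0.955. Among Olig2 peaks, the ratio was 1.77 at the second Hhip site, 0.928 at the Ptch1 peak starting at 63674273 and 0.524 and 0.534 in the 4-factor regions of Hhip and Ptch1. Peaks without Gli3 overlap also had ratios above the list: 0.615 at the Ptch1 peak starting at 63728812, which lay 54.19 kb from the nearest Gli3 peak, 0.558 at that starting at 63668901, 0.429 at the Gli1 peak starting at 126726390 and 0.369 at the Hhip peak starting at 82700642. It was below the list's median for 2 Olig2 peaks, that of Ptch1 starting at 63588767 (-0.926) and that of Gli1 starting at 126891489 (-0.799), neither of them at Gli3. For Nkx6.1 the ratio was 0.485 in the 4-factor region of Hhip, above 98.2% of its list, and -1.26 in that of Ptch1, above 33.2%. It was 0.204 at the other Ptch1 peak at Gli3 (start 63670371), -0.285 at the Ptch1 peak away from Gli3, -1.11 at the second Hhip peak and -2.23 at the Gli1 peak. For Nkx6.1, ratios above and below the list's median were thus found both at Gli3 and away from it. For Olig2, all 4 peaks at Gli3 were above the list's median. So were those away from Gli3, except the peaks starting at 63588767 and 126891489. The 2 Nkx2.2 peaks above their list's median were those of the 4-factor regions, at -1.42 for Ptch1 and -1.51 for Hhip. The Nkx2.2 peak at Gli3 in the Gli1 window (start 126748734) was below that median, at -1.93. The ratio shares block 1 with the order of the list, what separates the blocks was not stated, and the part of either in these ratios was not tested.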

How the data were processed

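Titles gave the factor and the kind (ChIP or input) of the 13 libraries. Bowtie2 2.2.4, HOMER and mm9 are named in the submitters' processing notes. Their roles, settings and thresholds, and any pooling of replicates, were not given in the sources used here. Of peaks, the authors deposited 1 list per factor, as positions of 300 bp without a score. They deposited coverage for the 3 ventral lists, in steps of 25 bp to 2000 bp on each side, per the file headers, in 3 blocks that name no library. Each table's name has 3 codes, and whether they follow the order of the blocks is not stated, so no block was given a library. Its scaling is not given and the depth is unknown, so no interval or error could be set on any value. Columns left out numbered 0.

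Peak centres were assigned to the 3 windows, and row i of a coverage table was taken for line i of its list. Coordinates were printed 1-based. Overlap meant at least 1 bp. Centre coverage was the mean within 250 bp and the flank that of the outermost 250 bp on the right. With 1 list per factor and unnamed blocks no replicates could be compared, and no test was made. Described in full were regions with Gli3, regions of 3 or 4 factors, and the highest peak by block 1 per window and table. The other peaks given in full were chosen after their values were seen, as were the second summits, the lengths of Gli3 stretches, the core motif and the use of block 2 in place of block 1. The genes, windows and lists were chosen with earlier results of these data known. Neighbouring genes are not reported here. Other Hedgehog pathway genes were not analysed here, since no annotation of mm9 was used. Functions were tested on simulated data. Python packages were numpy 2.4.6, pandas 2.3.3, scipy 1.17.1 and matplotlib 3.10.9.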

Additional observations from a re-analysis of the deposited data

How the results depend on the processing

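Of 68 recomputed values, 56 stayed within 1.5 times the count reported and 12 moved. With windows widened by 50 kb on each side, the Gli1 window held 5 Nkx2.2 and 2 Nkx6.1 peaks. With windows narrowed by 50 kb, Olig2 fell to 3 peaks at Gli1 and 3 at Hhip. The Gli3 counts did not move by that much under either. With centres within 100 bp in place of overlap, 1 Nkx6.1 and 1 Olig2 peak were at Gli3, while Nkx2.2 kept 2. Nkx6.1 peaks above their list's median numbered 4 by the mean log2 coverage over blocks and 4 by block 2, the latter chosen after seeing the data. At 4 times the flank, 4 Nkx2.2 peaks passed in block 2, and 1 Nkx6.1 and 1 Olig2 peak passed in block 3. With the flank of both sides, 2 Nkx6.1 peaks passed in block 3. The causes were not tested. No paired analysis was possible because no result came from a test and the columns name no replicate. The lists carry no score, so no stricter peak threshold was tried, and with the depth unknown an absent peak does not show absent binding.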

Other observations

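Windows of the same width that held at least as many peaks of all 4 lists were searched for each gene, in steps of 100 kb. For the Ptch1 window there were 3, of which 1 was its own and 2 were overlapping views of another place on chromosome 8, given as chr8:122800001-123100000, with 5 Nkx2.2, 4 Nkx6.1, 19 Olig2 and 9 Gli3 peaks. For the Gli1 window there were 13, of which 3 overlapped it. The others included that stretch of chromosome 8, the Ptch1 window itself, and chr6:51900001-52200000, with 13 Nkx2.2, 13 Nkx6.1, 19 Olig2 and 6 Gli3 peaks. For the Hhip window they made up 1.13% of all windows of 400 kb. Those with the most peaks were chr6:51900001-52300000 (54 peaks), chr11:96400001-96800000 (44), chr5:101700001-102100000 (42), chr8:122700001-123100000 (42) and chr2:145800001-146200000 (36). The corresponding shares were 0.0114% for the Ptch1 window and 0.0494% for the Gli1 window, out of all windows of 300 kb. Which genes lie in these windows was not analysed here.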
